A study of Mus musculus with 24 samples.

Results

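Eph receptors and their ephrin ligands were described here through 10 genes in sorted mouse gut epithelium: the ligands Efna1, Efna2, Efna3, Efna4, Efnb1 and Efnb2, and the receptors Epha2, Ephb2, Ephb3 and Ephb4. All 10 were among the 24421 genes measured, and all 10 passed the filter on low values. They were chosen by family membership and because Efna3 was lower in colon epithelium of the late KO mice. The colon contrast between late KO and irradiated wild-type mice is therefore given as a description, without a test, and so is every colon comparison that shares libraries with it.

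The study measured RNA in epithelial cells sorted as Villin-tomato positive and CD45 negative from 12 C57BL/6 mice aged 8 to 14 weeks. Villin drives the tomato reporter in the lining cells of the gut, and CD45 marks blood-derived cells. Colon and ileum were each sequenced once per mouse, giving 24 libraries, so that a colon and an ileum library with 1 mouse number share an animal. The early KO group held 4 mice sampled 2 weeks after chimerism, and the late KO group held 3 mice sampled 8 weeks after it. Wild-type mice (WT) were either irradiated chimeras taken at 8 weeks (2 mice) or non-irradiated, untreated animals (3 mice). The 3 chimeric groups share the making of the chimera, which the non-irradiated mice lack, and there was no wild-type group at 2 weeks, so time after chimerism cannot be told apart from genotype for the early mice. The series title places the deficiency (IL-10Rα) in gut macrophages, while the sorted cells are epithelial. No source used here says whether these cells carry the deleted allele. The receptor transcript Il10ra was near the floor in all libraries, with 4.0 to 31.2 normalised reads in KO and 1.6 to 20.8 in WT mice, and does not check the labels.

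Ephrins are cell-surface ligands, the A class held by a lipid anchor and the B class by a membrane-spanning stretch, and they act on Eph receptor tyrosine kinases of touching cells, with signals passing into both cells. In the gut the B class is known for sorting cells along the crypt axis: EphB2 and EphB3 are targets of Wnt signalling that are strong in the proliferating crypt, and ephrin-B1 and ephrin-B2 rise toward the surface. The A class is less well charted there, with ephrin-A1 known as the main partner of EphA2 in epithelia.

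Of the 10 genes, Efna3, Efnb2 and Ephb3 were higher in colon than in ileum of non-irradiated WT mice. Their upstream sequences are shown because these were the members that passed that test. Each window holds the 250 bases before the first listed gene start in RefSeq (GRCm38.p6), 5′ to 3′ on the gene's strand, and capitals mark a motif match. The windows lie at chr3:89322940-89323189 (minus strand) for Efna3, chr8:8661243-8661492 (minus strand) for Efnb2 and chr16:21204545-21204794 (plus strand) for Ephb3.
Efna3: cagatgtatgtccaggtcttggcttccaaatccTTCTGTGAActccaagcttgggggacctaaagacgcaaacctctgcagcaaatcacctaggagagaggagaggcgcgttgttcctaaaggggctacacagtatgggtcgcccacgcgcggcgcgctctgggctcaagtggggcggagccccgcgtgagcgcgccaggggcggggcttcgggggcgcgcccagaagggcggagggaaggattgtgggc
Efnb2: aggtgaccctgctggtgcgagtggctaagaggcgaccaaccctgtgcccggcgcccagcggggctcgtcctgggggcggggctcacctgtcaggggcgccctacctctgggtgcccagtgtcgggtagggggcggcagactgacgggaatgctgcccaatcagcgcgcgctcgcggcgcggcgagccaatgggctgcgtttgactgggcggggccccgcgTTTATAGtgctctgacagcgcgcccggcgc
Ephb3: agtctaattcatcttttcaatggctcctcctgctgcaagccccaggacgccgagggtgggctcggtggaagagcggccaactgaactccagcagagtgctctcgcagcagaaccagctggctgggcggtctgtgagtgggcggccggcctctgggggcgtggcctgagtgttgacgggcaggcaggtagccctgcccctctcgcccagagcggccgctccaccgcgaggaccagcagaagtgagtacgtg
The motifs searched, on both strands, were CTTTGA (the core read by TCF/LEF, the DNA-binding partners of β-catenin), TTCNNNGAA (STAT factors) and TTTATNG (CDX factors of the gut). No match overlapped another. The Efna3 window held 1 STAT match, TTCTGTGAA, a motif present in 7.02% of all 32851 RefSeq windows of this length. The Efnb2 window held 1 CDX match, TTTATAG, which occurred in 9.81% of windows. The Ephb3 window held none of the 3. Among the 12 windows listed for the 10 genes, the only TCF/LEF match was in that of Epha2, and 13.8% of all windows had one. A second Efna3 start held none.

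Libraries held 8.32 to 18.7 M reads (median 13.2 M), and 1 read was worth 0.698 to 2.22 normalised reads. Ribosomal Rn45s took 0.0642% to 29.4% of reads. All 8 epithelial markers were above 0 in all libraries. Reads in 1462 olfactory and vomeronasal receptor genes, which belong to sensory neurons of the nose, differed between libraries. They reached 752 to 1052 per M reads in late KO colon, 429 to 693 in early KO colon, 234 and 592 in irradiated WT colon, and 232 to 682 in non-irradiated WT colon. The highest WT value came from mouse 75. These reads are called receptor-gene reads below and are given beside the results they moved with.

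The ligands differed widely in level. Per kilobase of exon (GENCODE vM21 gene models), Efna1 was the most abundant of the 10 in non-irradiated WT colon, at 1104 ± 308 normalised reads per kilobase (SD, n = 3). Efnb2 followed at 609 ± 139, and the ranges of these ligands, 900 to 1458 and 464 to 743, did not overlap. Efna3 (261 ± 60.1), Efnb1 (255 ± 100) and the receptor Epha2 (222 ± 74.3) came next and overlapped each other. The B receptors lay lower, with Ephb2 at 110 ± 32.9, Ephb4 at 93.1 ± 33.5 and Ephb3 at 56.0 ± 17.2, and neighbours in this order overlapped. The order rests on the exon length used, which was 12.6 kilobases for Ephb2 and 1.83 for Efna1. Efna4 (17.1 ± 3.03) and Efna2 (4.57 ± 2.55) were close to the floor. In ileum of the same mice, by contrast, Efna3 was at 9.04 ± 5.16 per kilobase, and only Efna2 was lower.

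Efna3, which encodes the lipid-anchored ligand ephrin-A3, was thus a colon ligand in these cells. In non-irradiated WT mice it was at 516.0, 799.1 and 593.1 normalised reads in colon against 36.1, 17.9 and 12 in ileum (mice 72, 73 and 75). The colon libraries all lay above the ileum libraries. In bulk RNA, fewer cells that make a transcript and less of it per cell cannot be told apart. The difference was 4.91 ± 0.77 on the log2 scale (SE), a 30.0-fold ratio, with a limma adjusted p of 5.73e-05. Whether these WT colon libraries were part of the choice of genes is not stated, so this test may not be independent of it. In early KO mice the colon also exceeded the ileum in 4 of 4 animals, by 2.42 ± 0.67 (adjusted p = 0.0141). Without mouse 120 that difference was 1.86 with an adjusted p of 0.144. Over the mice, the colon minus ileum difference was 3.80 to 5.51 in the 3 non-irradiated WT, 5.47 in each of the 2 irradiated WT, 1.23 to 4.11 in early KO and 0.61 to 1.96 in late KO mice. Colon exceeded ileum in 12 of 12 mice, and the late KO mice had smaller gaps than any WT mouse. The late KO gaps use the colon libraries whose low Efna3 chose the genes. Their small size follows from that choice and is a description only. The irradiated WT gaps use colon libraries of the same untested contrast. Those gaps, and the count of 12 of 12 mice, are descriptions too.

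**Figure D1:**
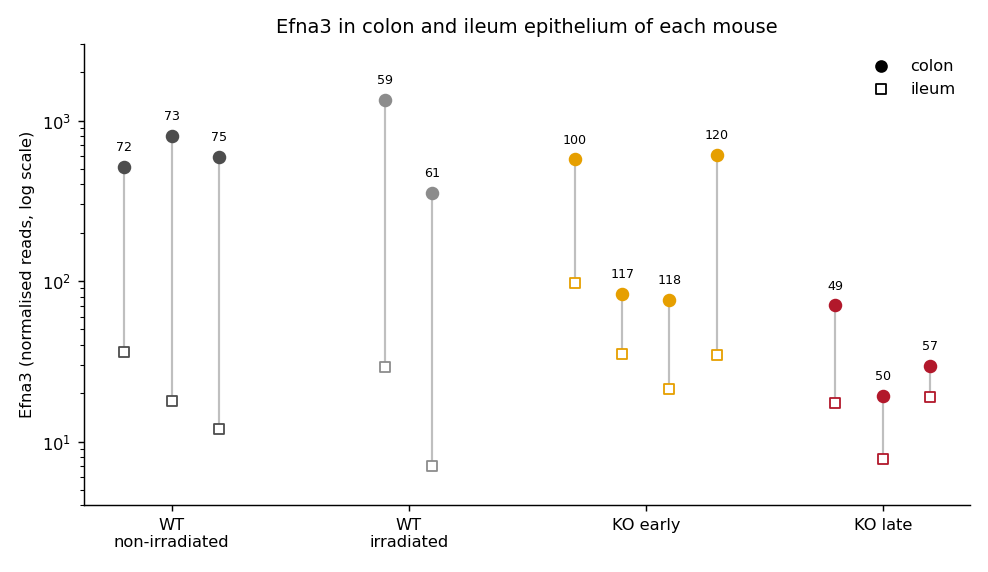
Efna3 in normalised reads (log axis) for each mouse, with colon as filled circles, ileum as open squares, a line joining the libraries of 1 mouse and the mouse number above. The 5 WT colon values lie between 353.1 and 1342.4, the early KO mice split into 574.2 and 609.3 against 83.2 and 76.1, and the late KO values lie between 19.2 and 70.6.

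In colon, Efna3 was low in all late KO mice. Late KO libraries held 70.6, 19.2 and 29.6 normalised reads (mice 49, 50 and 57), against 1342.4 and 353.1 in irradiated WT mice. The groups did not overlap, and the late KO colon values were within the span of the 12 ileum libraries (7.0 to 97.5). The upper end of that span was 1 library, the early KO ileum of mouse 100. The next highest ileum value was 36.1, below the 70.6 of late KO colon in mouse 49. The log2 difference was −4.29 ± 0.88 against irradiated WT and −4.15 ± 0.79 against non-irradiated WT. A fall in late KO colon chose the genes, so both values share libraries with that choice and neither carries a test. As said above, other tests of Efna3 that use non-irradiated WT colon may not be independent of the choice. Over other tools, scalings and left-out libraries, the first difference ranged from −5.25 to −3.17 and the second from −4.66 to −2.90. The smallest of each came from a fit with receptor-gene reads as a covariate.

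Early KO mice fell into high and low animals for this gene. Mice 100 and 120 had 574.2 and 609.3 normalised reads in colon, within the WT range, while mice 117 and 118 had 83.2 and 76.1, just above the highest late KO library. The mean was 336 ± 296 (SD, n = 4) against 636 ± 146 (n = 3) in non-irradiated WT. The difference, −1.52 ± 0.74 on the log2 scale, did not pass the test (limma adjusted p = 0.453, 95% interval −3.10 to 0.06). The summed level of 5 colon markers (Car1, Car4, Slc26a3, Aqp8 and Hoxb13) was also lower in mice 117 and 118, at 3549 and 3043 reads per M, than in mice 100 and 120, at 4908 and 6412. It was 2384 to 4964 in late KO and 5216 to 6562 in WT colon, with all 5 genes detected. Receptor-gene reads divided the early KO animals in the same way, with 429 and 521 per M in mice 100 and 120 and 693 and 571 in mice 117 and 118. WT mouse 75 had 682 per M with 593.1 for Efna3. Leukocyte markers (12 genes) summed to 168 to 379 per M in early KO, 228 to 387 in late KO and 99.5 to 201 in WT colon. Much of this was Ly6g, at 64.5 to 157 per M in WT colon and at most 1.38 in ileum. The other 11, a sum chosen after seeing the data, came to 44.5 to 171 in early KO, 133 to 237 in late KO and 28.0 to 87.5 in WT colon. None of the 12 was at 0 in any whole group. The part of these markers in the Efna3 values was not tested.

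In ileum Efna3 was low everywhere. Early KO ileum held 97.5, 35.0, 21.2 and 34.4 normalised reads, late KO ileum 17.4, 7.8 and 19.0, and irradiated WT ileum 29.3 and 7.0. All late KO values were below all early KO values, a difference of −1.47 ± 0.59 (adjusted p = 0.156). The early KO difference was 1.39 ± 0.66 from irradiated WT (adjusted p = 0.208) and 0.97 ± 0.59 from non-irradiated WT (adjusted p = 0.353). With receptor-gene reads as a covariate these 3 differences were −2.09, 2.71 and 2.05 and passed the test (adjusted p = 0.0176, 0.0476 and 0.0223). Over all 19122 genes, that fit called 1327, 6 and 352, in the same order. Between late KO and irradiated WT ileum the difference was −0.07 ± 0.70 (adjusted p = 1.0), and its sign turned when mouse 50 or mouse 59 was left out.

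The gap between colon and ileum for Efna3 differed between early KO and non-irradiated WT mice by −2.49 ± 1.02 on the log2 scale, which did not pass in the fit without a mouse term (adjusted p = 0.414). With the mouse as a block, which uses that both libraries come from 1 animal, the same difference had an adjusted p of 0.0341. No member was called by the first fit, where 0.143% of 19588 genes were (2 members and 9.4% of genes had an unadjusted p under 0.05, and edgeR and DESeq2 called none). Efna3 was the only one called with the block, where 1.33% of genes were.

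Efna1, the partner of EphA2, encodes another lipid-anchored ligand. In non-irradiated WT mice its colon values of 1746.9, 2667.6 and 1646.6 all exceeded the ileum values of 1220.2, 1131.8 and 768.7. The difference of 0.95 ± 0.43 did not pass (adjusted p = 0.174), and passed with the mouse block (adjusted p = 0.0304). In late KO colon Efna1 was at 680.0, 706.2 and 1612.6, below the 3 non-irradiated WT values and overlapping the irradiated ones (2344.0 and 1306.2). Efna4 was low, at 8.7, 12.5 and 19.7 normalised reads in late KO colon against 30.5 and 21.6 in irradiated and 21.8 to 30.6 in non-irradiated WT colon. Late KO lay below both WT groups without overlap, with differences of −0.94 ± 0.44 and −1.01 ± 0.40. Efna2 stayed at 0.0 to 20.0 normalised reads in every library. Its highest values were in early KO ileum (9.4 to 20.0), above non-irradiated WT ileum (0.0 to 8.0) without overlap, as were 1288 of 19122 genes. Before scaling these were 9, 12, 19 and 9 reads (mice 100, 117, 118 and 120) against 10, 0 and 4 (mice 72, 73 and 75), which overlap. The difference in normalised reads, 2.08 ± 0.70 on the log2 scale, did not pass the test (adjusted p = 0.223).

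Efna1, Efna3 and Efna4 are neighbours in the mouse genome, in that order in RefSeq with only non-coding genes between them. In late KO against irradiated WT colon Efna3 differed by −4.29, Efna1 by −0.93 ± 0.51 and Efna4 by −0.94 ± 0.44. Of the members on other chromosomes, Efnb1 differed by −0.96 ± 0.55 and Ephb4 by −1.10 ± 0.41. Efnb2, Ephb2, Ephb3, Epha2 and Efna2 lay between −0.27 and 0.49. With receptor-gene reads as a covariate the Efna1 difference was −0.09. A link between position and these values was not tested. The 2 nearest genes on each side of Efna3 (Gm33845, Gm34014, Gm15998 and Gm34118) were not listed under these names among the genes measured.

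Ephrin-B ligands span the membrane. Efnb2 was well expressed and the more regional of the pair. In non-irradiated WT mice it was at 4243.0, 5091.2 and 3183.8 normalised reads in colon against 1995.8, 1978.8 and 2019.0 in ileum, with no overlap. It rose in colon by 1.04 ± 0.23 (2.05-fold, adjusted p = 0.00261), and in early KO mice by 0.62 ± 0.20 (1.54-fold, adjusted p = 0.0407). The early KO call was lost without mouse 117, 118 or 120 (adjusted p = 0.067, 0.105 and 0.239), and the WT call without mouse 73 (0.0597). Colon exceeded ileum in 12 of 12 mice. In late KO colon Efnb2 was at 2701.6, 2987.0 and 3514.2, overlapping irradiated WT (4056.8 and 2947.8), a difference of −0.18 ± 0.32. The early KO difference from non-irradiated WT colon was −0.37 ± 0.27 (adjusted p = 0.557). Efnb1 did not differ between regions in WT mice (0.07 ± 0.51, 95% interval −0.98 to 1.13). In late KO colon it was at 260.1, 268.1 and 755.5, against 1128.4 and 475.1 in irradiated WT mice.

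The crypt receptors Ephb2 and Ephb3 differed between late KO and irradiated WT colon by less than 1 SE. Ephb2 was at 1073.9, 1205.0 and 1558.4 in late KO against 1850.2 and 1043.8 in irradiated WT colon, a difference of −0.14 ± 0.34. Ephb3 was at 162.3, 249.0 and 389.6 against 392.6 and 233.4, a difference of −0.27 ± 0.41. Ephb3 rose in colon over ileum of non-irradiated WT mice, with 437.0, 438.4 and 239.5 against 241.2, 174.5 and 92.3. Colon was higher in each mouse but the groups overlapped by the colon value of mouse 75, and the difference was 1.18 ± 0.38 (adjusted p = 0.0388). The call was lost when any of the 3 mice was left out (adjusted p = 0.0726 to 0.199). In early KO mice the same difference was 0.95 ± 0.33 (adjusted p = 0.0591), which passed with the mouse block (0.0118). For Ephb2 colon minus ileum was 0.63 ± 0.24 in early KO mice (adjusted p = 0.0959), above 0 in 4 of 4 animals, and passed with the block (0.0121). In early KO against non-irradiated WT colon, Ephb3 differed by −0.64 ± 0.34 (adjusted p = 0.494).

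Epha2, the receptor of ephrin-A1, leaned the other way. It was at 1354.5, 1096.0 and 667.0 normalised reads in non-irradiated WT colon against 2135.2, 2969.0 and 1537.4 in ileum, lower in colon in 3 of 3 mice without overlap. The difference of −1.10 ± 0.55 did not pass (adjusted p = 0.235). In early KO mice it was −1.16 ± 0.48 (adjusted p = 0.128), which passed with the mouse block (0.0215). In late KO colon Epha2 was at 691.2, 1171.7 and 2348.4 and overlapped both WT groups.

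Ephb4, the receptor of ephrin-B2 best known from veins, showed opposite tissue patterns in the KO groups. In early KO mice colon exceeded ileum in 4 of 4 animals, with 471.4, 276.7, 331.7 and 376.2 against 243.8, 165.3, 243.8 and 250.5 (mice 100, 117, 118 and 120). The difference of 0.68 ± 0.33 did not pass (adjusted p = 0.229) and passed with the block (0.00953). In late KO mice colon was below ileum in 3 of 3 animals, with 221.7, 129.1 and 252.5 against 584.7, 325.8 and 357.1 (mice 49, 50 and 57). WT mice lay near 0, from −0.19 to 0.25. Receptor-gene reads were 752 to 1052 per M in colon and 282 to 443 in ileum of late KO mice. In early KO mice they were 429 to 693 in colon and 277 to 711 in ileum. Their part in the opposite patterns was not tested. In ileum the difference was −0.97 ± 0.34 for early KO minus non-irradiated WT (adjusted p = 0.231) and 0.87 ± 0.34 for late minus early KO (adjusted p = 0.148). In colon, late KO lay below irradiated WT (603.3 and 285.5) and below non-irradiated WT (514.8, 528.6 and 253.1) without overlap, with differences of −1.10 ± 0.41 and −1.08 ± 0.37. The 7 endothelial markers, all detected, summed to 73.0 to 154 reads per M in late KO, 63.5 to 105 in early KO and 37.6 to 133 in WT colon, and their part was not tested.

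Receptor-gene reads moved with Ephb4 and Efnb1 in colon. The 3 WT colon libraries with 232 to 234 receptor-gene reads per M had 514.8 to 603.3 for Ephb4, while WT mice 61 and 75, with 592 and 682, had 285.5 and 253.1. Late KO mouse 57, with 752, had 252.5. With these reads as a covariate, the late KO minus irradiated WT difference was −0.07 for Ephb4, −0.09 for Efna1 and 0.38 for Efnb1, against −0.66 for Efna4 and −3.17 for Efna3. All late KO colon libraries had more receptor-gene reads than any WT library, so the group and these reads cannot be told apart fully.

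**Figure D2:**
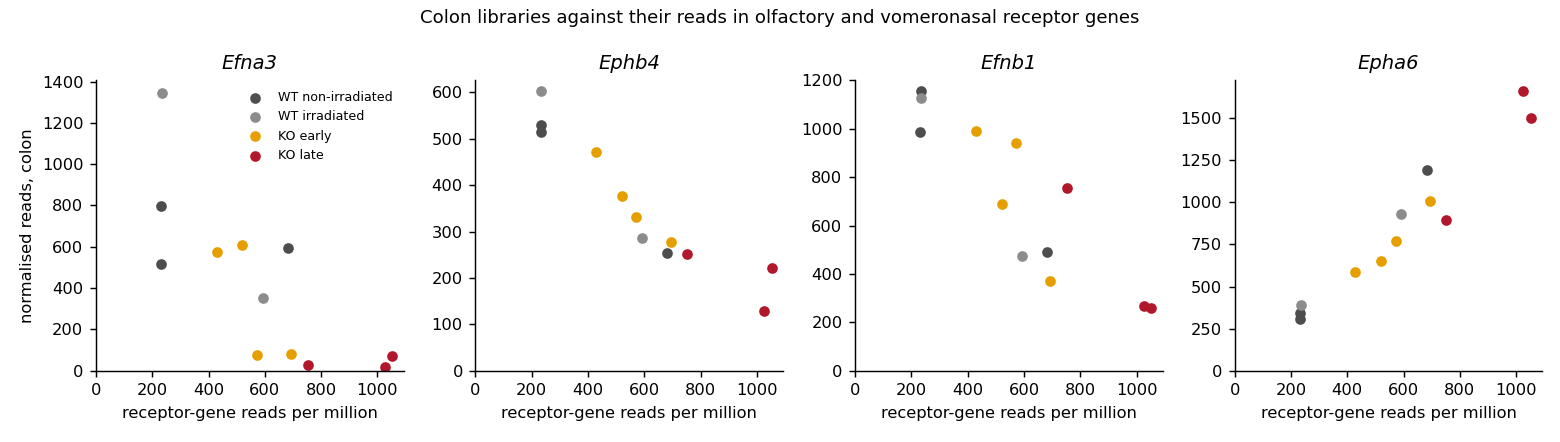
Normalised reads of Efna3, Ephb4, Efnb1 and Epha6 in the 12 colon libraries (vertical axes) against reads per M in 1462 olfactory and vomeronasal receptor genes (horizontal axes), 1 point per library, coloured by group. Ephb4 and Efnb1 are lower and Epha6 is higher in libraries with more such reads. For Efna3 the early KO libraries at 429 and 521 per M are high and those at 571 and 693 low, the 3 late KO libraries at 752 to 1052 are low, and the WT library at 682 is at 593.1.

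Counted together, 3 of the 10 genes passed in non-irradiated WT mice for colon against ileum, all higher in colon, where 14.7% of 19588 genes passed (8.27% higher). Efna3 was among the 3, and its test may not be independent of the choice of genes, as said above. In early KO mice 2 passed, Efna3 and Efnb2, against 14.2% of genes (7.73% higher). With the mouse block the counts were 4 (19.3% of genes) and 6 (18.1%), the additions being Efna1 in WT and Epha2, Ephb2, Ephb3 and Ephb4 in early KO mice. The median log2 difference of the 10 was 0.60 in WT and 0.56 in early KO mice, beside −0.08 and −0.09 over all genes. Without mouse 120 no member passed in early KO mice.

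**Figure D3:**
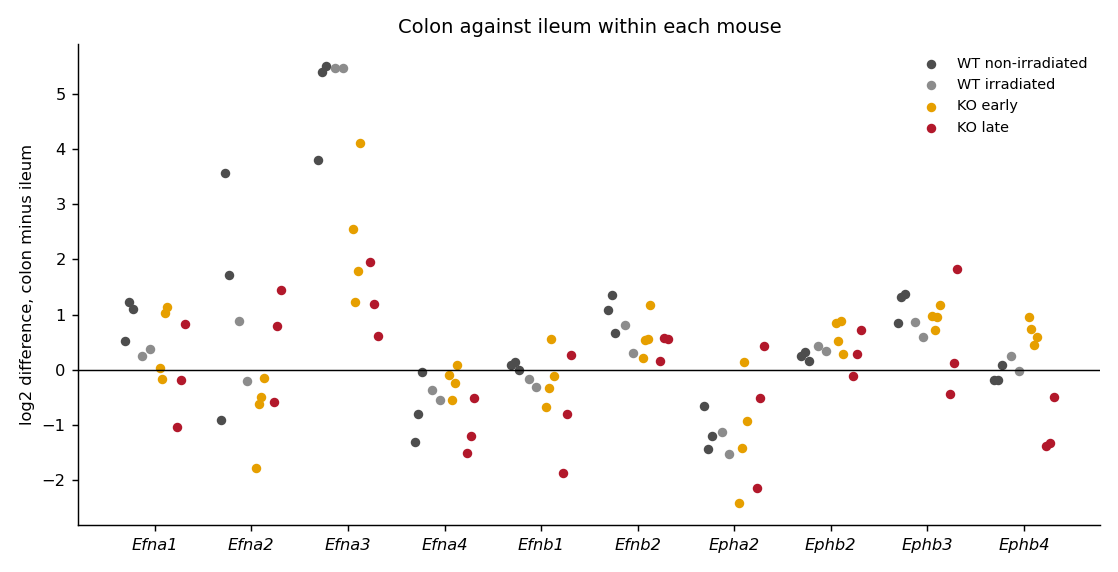
Colon minus ileum on the log2 scale (vertical axis) for each of the 10 genes, 1 point per mouse, coloured by group. Efna3 and Efnb2 are above 0 in 12 of 12 mice, and Ephb4 is above 0 in the 4 early KO and below 0 in the 3 late KO mice.

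In colon, early KO against non-irradiated WT gave no member past the test (limma, 0.559% of 19145 genes were), none with an unadjusted p under 0.05 (11.4% of genes), and none with edgeR or DESeq2. All 10 differences were below 0, as were those of 8566 of the 19145 genes, and their median was −0.26 beside 0.07 over all genes. In late KO against irradiated WT colon, 8 of 10 values were below 0 (50.6% of genes were), and 3 genes, Efna3, Efna4 and Ephb4, lay below without overlap, as did 18.5% of genes. Against non-irradiated WT, 9 of 10 were below 0 (51.7%) and 4 did not overlap, Efna1 being the addition (12.6%). Against early KO, 7 were below 0 (47.9%) and 2, Efna3 and Ephb4, did not overlap (6.47%).

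In ileum no member passed in any of the 5 comparisons between groups, and no gene did (0% of 19122 genes). The members with an unadjusted p under 0.05 numbered 3 for early KO against non-irradiated WT (Efna2, Efna4 and Ephb4), 2 for late against early KO (Efna3 and Ephb4) and 0 for the others. Over all genes such p-values made up 18.3% and 24.6% in these comparisons, 24.9% for early KO against irradiated WT, 0.821% for late KO against irradiated WT and 0.978% between the WT groups. Neither edgeR nor DESeq2 called a member, while over all genes edgeR called 0 to 2 and DESeq2 0 to 1342, the most for late against early KO.

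**Figure D4:**
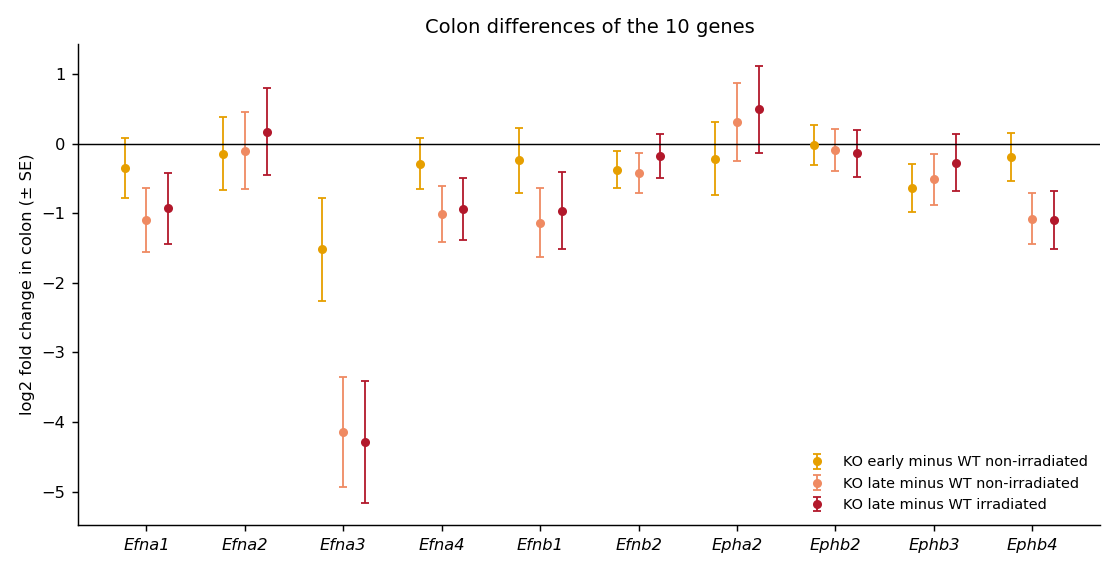
Log2 fold change in colon (vertical axis, bars are SE) for each of the 10 genes in early KO against non-irradiated WT and in late KO against each WT group. Efna3 is the lowest in all 3, at −1.52, −4.15 and −4.29, and the late KO values are a description without a test.

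The other 12 genes of the family fell into separate kinds. Epha4, a receptor for ligands of both classes, was at 519.4, 873.7, 1413.7 and 920.5 normalised reads in early KO colon and 963.7, 1239.9 and 1171.7 in late KO colon. WT colon held 470.0 and 505.5 (irradiated) and 415.1 to 447.2 (non-irradiated), so that no KO colon library overlapped WT. Of 19145 genes, 578 were higher without overlap in early KO than in non-irradiated WT colon, and 1513 than in irradiated WT colon. For late KO these were 1307 and 3190 genes. The early KO difference from non-irradiated WT was 1.03 ± 0.27 with limma (adjusted p = 0.138), and passed with DESeq2 (0.00651) and without mouse 100 (0.0252) or mouse 75 (0.0473). Over all genes, 107 passed with limma, 501 with DESeq2, 169 without mouse 100 and 2551 without mouse 75. Epha4 was higher in colon than ileum of early KO mice by 1.13 ± 0.22 (adjusted p = 0.000539) but not of WT mice (0.19 ± 0.25, adjusted p = 0.762), and the difference between these, 0.94 ± 0.33, did not pass (adjusted p = 0.314). The WT colon library of mouse 75, rich in receptor-gene reads, was at 428.3, which is 1 library. Over all alternatives, a fit with these reads as a covariate among them, the early KO difference from non-irradiated WT colon was 0.80 to 1.28. The part of these reads in the Epha4 values was not tested. Ephb6, a receptor that lacks kinase activity, rose in colon over ileum in non-irradiated WT (2.15 ± 0.60, adjusted p = 0.0153) and early KO mice (2.84 ± 0.52, adjusted p = 0.000346). The WT call was lost without mouse 75 (adjusted p = 0.061). Epha1 was lower in colon of early KO mice (−1.21 ± 0.36, adjusted p = 0.0247), a call lost without mouse 100, 117 or 120. No other gene of these 12 passed in the 2 tissue comparisons.

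Another 6, Epha3, Epha5, Epha6, Epha7, Ephb1 and Efna5, span 154 to 952 kilobases and followed the receptor-gene reads of the libraries. Epha6, the longest, was at 344.0, 306.3 and 1192.5 in non-irradiated WT colon, where the receptor-gene reads were 232, 233 and 682 per M, and at 1500.1, 1659.6 and 896.6 in late KO colon. Differences of these 6 between groups are not given as results for that reason. Epha4, at 148 kilobases, is nearly as long as the shortest of these 6. Epha8, Epha10 and Efnb3 were at most 86.6 normalised reads.

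**Figure D5:**
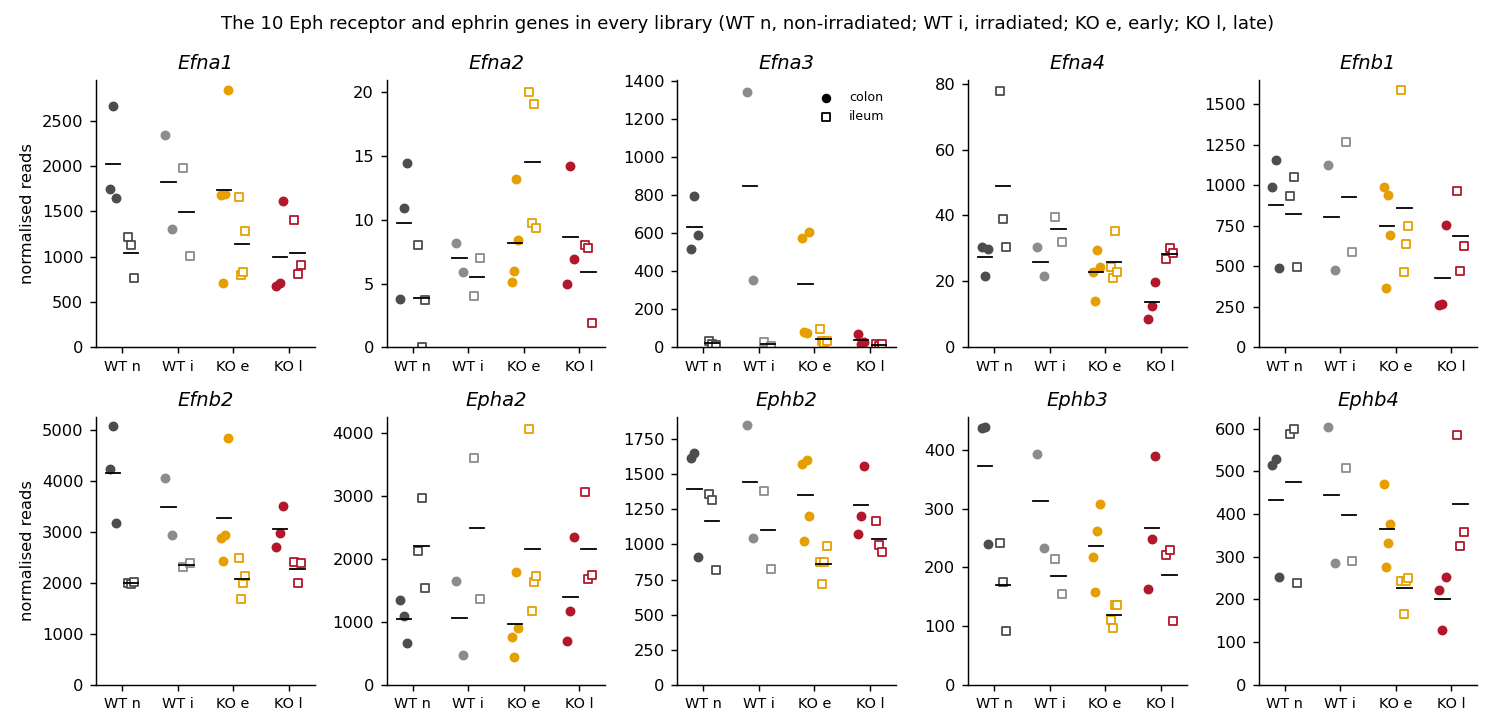
Normalised reads (vertical axes from 0, a scale per gene) of the 10 genes in every library, with colon as filled circles, ileum as open squares and a bar at each group mean. Efna3 is the gene whose WT colon libraries stand apart from ileum and from late KO colon, while Ephb2 and Efnb2 overlap between the colon groups.

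Genes that carry Eph and ephrin signals inside the cell were taken as a list of 27. In non-irradiated WT mice 4 of 27 were higher and 1 lower in colon than ileum, where 14.7% of all genes passed in either direction. Vav2, a guanine nucleotide exchange factor, was lower (−1.97 ± 0.24, adjusted p = 1.43e-06) and Abl2, a tyrosine kinase, higher (0.76 ± 0.18, adjusted p = 0.00377). In early KO mice 3 were lower, among them Vav2 (−2.27 ± 0.20, adjusted p = 1.79e-08) and Chn2 (−0.94 ± 0.19, adjusted p = 0.00118), which switches off Rac, and 0 higher, where 14.2% of all genes passed. The list median was −0.09 and −0.14, near that of all genes. Of 15 Wnt targets and crypt-base genes, 2 were higher and 5 lower in colon of WT mice, where 14.7% of all genes passed in either direction. In early KO mice 1 was higher and 2 lower, where 14.2% of all genes passed. Olfm4, a marker of ileal crypt stem cells, was lower in both groups (−7.04 ± 0.41 and −5.54 ± 0.35), and Prom1, a membrane protein of stem and progenitor cells, was higher (2.44 ± 0.28 and 2.75 ± 0.24). In the 6 tested comparisons between groups within colon or ileum, neither list had a gene that passed with limma or edgeR. DESeq2 called Olfm4, Axin2, Rnf43 and Cdca7 in early KO against non-irradiated WT ileum and Cdca7 in late against early KO ileum. Unadjusted p-values under 0.05 numbered 0 to 6 of the 27 partners and 0 to 7 of the 15 Wnt and crypt genes, beside 0.821% to 24.9% of all genes. The 6 partners came from early KO against irradiated WT ileum, where the share was 24.9%, and the 7 Wnt and crypt genes from early KO against non-irradiated WT ileum, where it was 18.3%.

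Across the 24 libraries, the genes whose log2 levels were most like those of Efna3, among 10374 genes, were Selenbp1 (Pearson r = 0.93), Pde2a (0.92), Ppargc1b (0.91), Slc37a2 (0.91) and Dusp3 (0.91). Selenbp1 was at a mean of 4180 normalised reads in non-irradiated WT colon, 2623 in early KO, 466 in late KO colon and 213 in WT ileum. Slc37a2, a sugar-phosphate transporter, went from 3197 to 830, 168 and 54.3 over the same groups. For Ephb2 the nearest were Fam129b (0.93), Nbeal2 (0.92), Mknk2 (0.90), Arap1 (0.90) and Gipc1 (0.89). These values describe libraries that share tissue, group and receptor-gene reads. The genes were picked for likeness over the same libraries, so a like order of their group means follows from the pick.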

How the data were processed

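Reads were aligned and counted by the authors with HISAT 0.1.6 and HOMER on mm9, per the submitters' processing notes. No source used here gives the annotation or the use of strand, so reads of overlapping genes may be shared. The labels' protocols describe 100 ng of total RNA, ribosomal depletion and single-end 50 bp reads, while the molecule label names polyA RNA. The values the authors deposited are a signal: reads per gene divided by a factor for each library, called normalised reads here. Low values were whole multiples of 1 step (98.5% to 100% of them, within 0.05), which gave the reads. 2 tissues of 12 mice made 8 groups of 2 to 4 libraries, and nothing beyond the mouse numbers says how the replicates were prepared.

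Values were tested as log2(value + 1) with limma 3.58.1 (trend) in R 4.3.3, because the table is not raw counts, on genes that reached 10 normalised reads in 2 or more libraries. Fold changes are on that scale and understate those of low genes. P-values were adjusted over all genes by Benjamini-Hochberg at 0.05, in 9 tested comparisons, and 5 colon comparisons were described only. Comparisons within a tissue used its 12 libraries and those between tissues all 24, so groups shared 1 spread. Colon and ileum libraries with 1 number come from 1 mouse, and the correlation of their deviations from group means ran from −0.05 to 0.56 over 7 mice, above 0.1 in 4 of 7. Alternatives were pseudocounts of 0.5 and 5, filters, edgeR 4.0.16 and DESeq2 1.42.0 on recovered reads, reads per M without Rn45s, a covariate, a mouse block, and each mouse left out. The code was tested on simulated data.

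The members and gene lists were chosen with earlier results of these data known. Named genes were the members, the 2 called genes with the smallest p per list and comparison, and the 5 genes most like Efna3 and Ephb2 with a mean of 100 or more. Epha1 was named after its values were seen. A colon marker of the list is not reported here and was left out of its sum.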

Additional observations from a re-analysis of the deposited data

Results flagged for a closer look

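Among 20 gene and group sets of 4 libraries, 1 library lay far from the rest: Ephb4 in the early KO ileum of mouse 117, at 165.3 normalised reads against 243.8 to 250.5 in the other libraries, a gap that made up 0.921 of the group's whole range. Chance gives such a library in about 1 in 20 groups. That library had 711 receptor-gene reads per M, the most in that group.

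The tissue difference of Ephb4 pointed in opposite directions in the KO groups. The mean log2 difference of colon minus ileum was 0.68 in early KO mice, above 0 in 4 of 4, and −1.07 in late KO mice, below 0 in 3 of 3. Receptor-gene reads also differed between colon and ileum of late KO mice, as given above, and their part was not tested. The difference between the groups was not tested, because the late KO colon libraries chose the members.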

How the results depend on the processing

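Over all alternatives, 44 single-gene results gave 626 values, of which 576 had the same direction and call, 17 lost a call, 27 gained one and 6 changed sign. The number of members called was 0 throughout for early KO against non-irradiated WT colon, and for late KO against irradiated WT and between the WT groups in ileum. With receptor-gene reads as a covariate it was 1 (Efna3) in each of the other 3 ileum comparisons and 6 for colon against ileum in early KO mice. In the latter that fit called 4990 of 19588 genes. In ileum it called 6 of 19122 genes for early KO against irradiated WT, 352 against non-irradiated WT and 1327 for late against early KO. For colon against ileum in early KO mice the member count was 5 on reads per M without Rn45s (3335 genes). It was 6 with the mouse block (3539 genes) and 0 to 2 with a mouse left out (2118 to 2324 genes). The WT count was 1 to 3 with a mouse left out (1839 to 2726 genes). With the mouse block 1 member was called for the difference between these tissue differences, and beyond the calls given above the block changed none. Signs turned for values near 0: Efna3 in late KO against irradiated WT ileum was 0.62 with the covariate and −1.03 to 0.89 with a mouse left out (0.30 without mouse 50, 0.89 without mouse 59), and Ephb4 −0.31 to 0.50 (−0.17 without mouse 49, −0.31 without mouse 61). Efna3 between the WT ileum groups was −1.38 to 0.54, the latter without mouse 61. Their cause was not tested.

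Over all genes, 107 passed for early KO against non-irradiated WT colon with limma, 501 with DESeq2, 180 on reads per M, 29 without mouse 72 and 2551 without mouse 75, and 28, 166 (DESeq2) and 261 (block) for the difference of tissue differences. Reads per M moved the median of all genes from 0.07 to 0.20 in the first and from −0.02 to 0.15 in the last. Irradiated WT had 2 mice, and Efna2 had at most 20.0 normalised reads in any library.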
